A study of Homo sapiens with 28 samples.

Results

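The 9 genes described here are MDM2, CDKN1A, FAS, TP53INP1, SESN1, ZMAT3, RRM2B, BBC3 and BAX, established targets of the transcription factor p53, taken as listed symbols out of the 19662 gene symbols measured in both cell lines. Their messenger RNA was measured by RNA-Seq in LNCaP, an androgen-responsive prostate adenocarcinoma line with wild-type p53, and in PC3, a neuroendocrine-like prostate cancer line that is negative for the androgen receptor and makes no p53 protein. The LNCaP libraries carried either an empty vector (EV) or Flag-tagged ONECUT2 (OC2), and the PC3 libraries were transfected with a control siRNA (siCtrl) or with siRNA against ONECUT2 (siOC2). Each line and treatment was kept in normoxia or in hypoxia at 0.2% O2, with 2 libraries per group, 8 groups and 16 libraries. No group carried a further agent by the labels, and the hours of hypoxia for these libraries were not given in the sources used here. In PC3 the siOC2 library numbered 1 used siRNA1 and the library numbered 2 used siRNA2, so the spread within that group is also a spread between 2 reagents. Separate cultures are not stated, so every p measures the spread between these libraries, which may be technical.

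p53 is a sequence-specific activator that is held at a low level by the ubiquitin ligase MDM2, itself a p53 target, and that is stabilised after DNA damage and other stress. Its targets stop the cell cycle (CDKN1A, which encodes the cyclin-dependent kinase inhibitor p21), promote cell death (BBC3 and BAX at the mitochondrion, the death receptor FAS at the cell surface), support repair and redox balance (RRM2B, a ribonucleotide reductase subunit, and SESN1, a stress-inducible inhibitor of mTORC1 signalling), or feed back on p53 and RNA (TP53INP1, a stress protein also linked to autophagy, and ZMAT3, a zinc finger RNA-binding protein). Many of these genes also have promoters and enhancers that respond to other factors, so their RNA is not a measure of p53 alone. ONECUT2 is a homeodomain transcription factor of liver, pancreas and neural lineages that was studied here for its part in hypoxia signalling and neuroendocrine plasticity.

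The values are RPKM, reads scaled to transcript length and to library size, so levels may be set side by side between genes within a library. Every log2 value is a difference of log2(RPKM + 0.1). The RPKM of all genes summed to 8.132e+05 to 9.619e+05 in the LNCaP libraries and to 4.013e+05 to 5.138e+05 in the PC3 libraries, and their upper quartile was 19.3 to 22.4 against 9.50 to 12.9, so the 2 tables are on different scales and each comparison between the lines is given on both the deposited scale and after division by each library's upper quartile. Depth could be estimated only within a line, from the steps in low values, relative to EV normoxia replicate 2 in LNCaP and to siCtrl normoxia replicate 2 in PC3. It was 0.548 to 1.00 in LNCaP and 0.348 to 1.15 in PC3, which are not comparable between the lines, and 3 PC3 libraries lay below 0.5, siCtrl normoxia 1, siCtrl hypoxia 2 and siOC2 hypoxia 1. All 6 LNCaP markers tested were higher in LNCaP than in PC3 controls in normoxia, and all 6 PC3 markers were lower. Of 6 hypoxia genes tested in LNCaP, 6 rose with hypoxia in both the EV and the OC2 libraries, and in PC3 the fold changes of 8 of 8 were above 0, with 3 past the test in siCtrl and 0 in siOC2. The overexpression could not be checked on ONECUT2 itself, which has no value in the 4 LNCaP OC2 libraries. ONECUT2 was 1.77 and 1.16 RPKM in the 2 siCtrl libraries in normoxia against 0.276 and 0.204 in siOC2, and 0.648 and 0.550 against 0.126 and 0.214 in hypoxia. The knockdown libraries were the lower at both oxygen levels, without overlap, and the 4.54-fold difference in normoxia had an adjusted p of 0.332 in the limma fit (2 libraries a group). Exact zeros can be failed estimates in this unit and are not read as absence. The main fit entered them as 0, and an alternative took them as missing. In bulk RNA, fewer cells of a kind and less RNA per cell cannot be told apart.

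In LNCaP, MDM2 led the 9 targets. The EV normoxia libraries held 216 and 194 RPKM of MDM2, a mean of 205, followed by RRM2B at 90.6, CDKN1A at 84.3, BAX at 66.7 and SESN1 at 51.1 RPKM, and the libraries of each neighbouring pair from RRM2B to SESN1 overlapped. TP53INP1 came next at 32.5 RPKM, and FAS at 5.89, ZMAT3 at 4.47 and BBC3 at 3.86 RPKM were the lowest, ZMAT3 and BBC3 overlapping. In PC3 siCtrl normoxia the order differed. RRM2B at 68.8 and MDM2 at 54.1 RPKM stood at the top with overlapping libraries, then BAX at 31.1, CDKN1A at 6.62, FAS at 5.56 and ZMAT3 at 1.87 RPKM. TP53INP1 at 1.26 and SESN1 at 1.02 RPKM overlapped, and BBC3 was last at 0.435 RPKM, below the 1 RPKM limit used for testing in PC3. The 8 other members passed that limit in both lines, and all 9 passed it in LNCaP and in the fit over the 16 libraries.

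**Figure D1:**
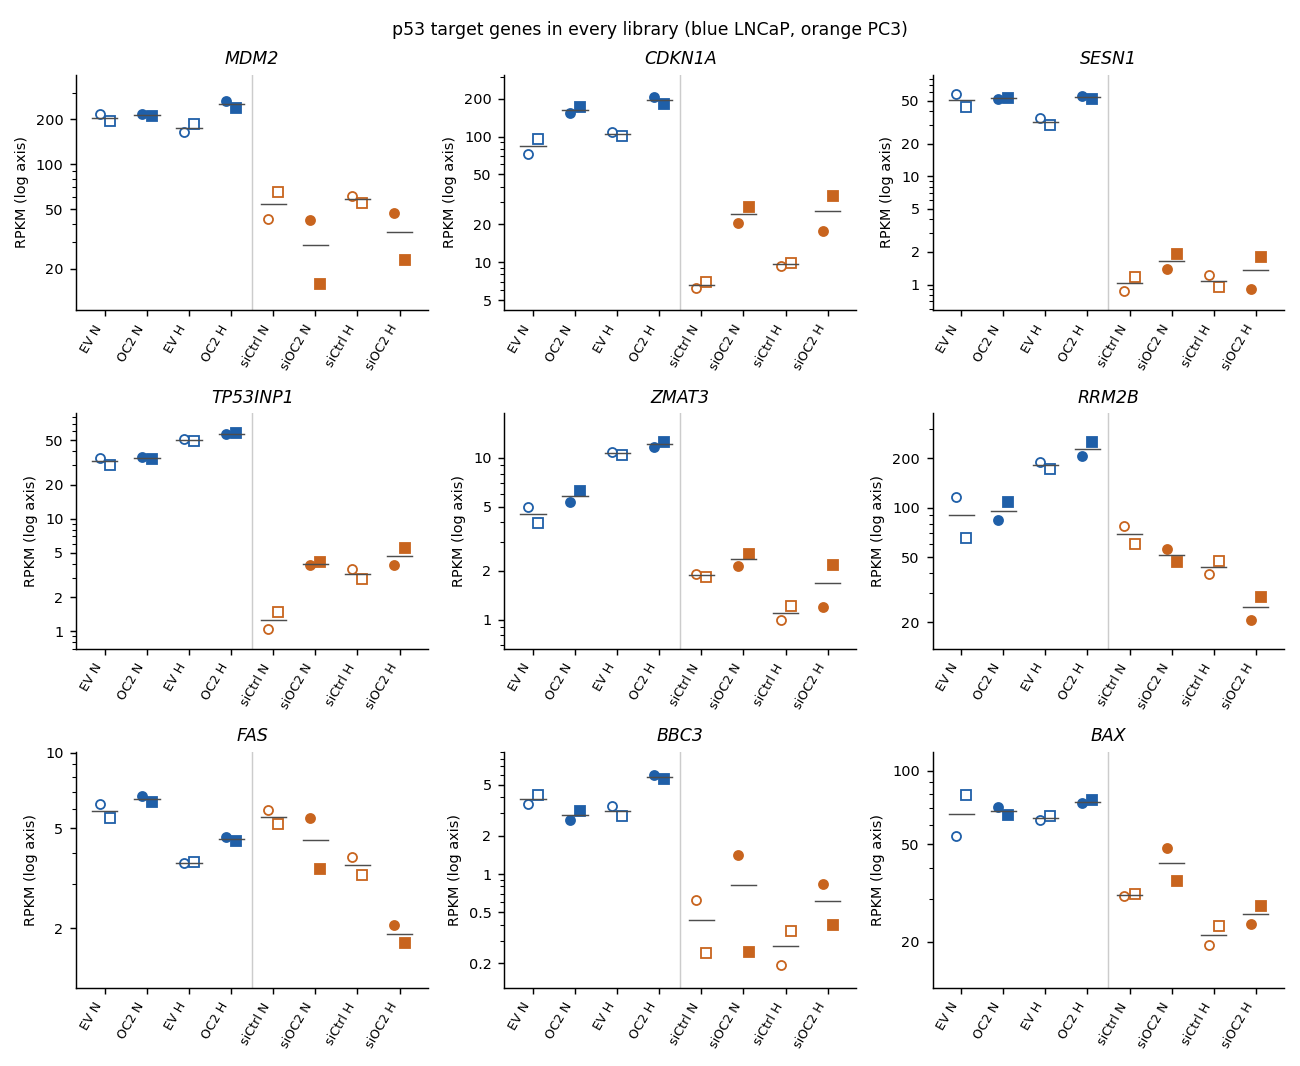
RPKM (log axis) of the 9 p53 target genes in each of the 16 libraries, blue for LNCaP and orange for PC3, open for EV or siCtrl and filled for OC2 or siOC2, circles for replicate 1 and squares for replicate 2, with a bar at each group mean; N is normoxia and H hypoxia. SESN1 lies between 29.9 and 58.4 RPKM in LNCaP and between 0.874 and 1.90 RPKM in PC3, while FAS overlaps between the lines.

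The levels of 7 of the 9 members did not overlap between the lines. Every LNCaP library lay above every PC3 library for MDM2, CDKN1A, TP53INP1, SESN1, ZMAT3, BBC3 and BAX, which holds for 45.0% of all genes tested on the deposited scale. Per upper quartile the count was 5 of 9, without ZMAT3 and BAX, against 25.9% of all genes. FAS was 3.63 to 6.71 RPKM in LNCaP and 1.74 to 5.92 RPKM in PC3, and RRM2B was 65.65 to 250.3 against 20.7 to 77.1 RPKM, both overlapping. The cell line, its table and its vector or siRNA cannot be told apart in these differences.

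In normoxia, EV against siCtrl, 7 of the 9 members were higher in LNCaP at an adjusted p under 0.05, beside 51.5% of all genes tested as deposited. SESN1 differed most, with 58.4 and 43.75 RPKM in LNCaP against 0.874 and 1.17 RPKM in PC3, a log2 difference of 5.51 (45.5-fold; limma, adjusted p = 2.5e-08). TP53INP1 was 34.6 and 30.3 RPKM against 1.05 and 1.48 RPKM, a log2 difference of 4.59 (24.1-fold; limma, adjusted p = 7.5e-09). These are the 2 members that were abundant in LNCaP and near 1 RPKM in PC3. CDKN1A was 72.9 and 95.7 RPKM against 6.26 and 6.98 RPKM, a log2 difference of 3.64 (12.5-fold; limma, adjusted p = 2.78e-07). BBC3, which encodes the pro-death protein PUMA, was 3.53 and 4.18 RPKM against 0.630 and 0.240 RPKM, a log2 difference of 2.99 (limma, adjusted p = 0.000816). With upper-quartile scaling these 4 genes stayed higher, beside 31.6% of all genes, at log2 differences of 4.65, 3.73, 2.75 and 2.19 in the same order. MDM2, at 1.95 as deposited (limma, adjusted p = 0.00123), was 1.06 after scaling with an adjusted p of 0.0563 in limma. ZMAT3 went from a log2 difference of 1.20 to 0.34 and BAX from 1.07 to 0.18 with the scaling, and neither then passed. FAS went from 0.08 to -0.79 and was then called lower in LNCaP (limma, adjusted p = 0.0156), beside 34.2% of genes called lower on that scale. The median log2 difference was 1.95 over the 9 members and 0.81 over all genes as deposited, and 1.06 and -0.05 after scaling.

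In hypoxia, 8 of the 9 members were higher in LNCaP, beside 54.2% of all genes as deposited, and FAS at 0.04 was not. The member with the largest log2 difference was again SESN1 at 4.78, followed by TP53INP1 at 3.93, CDKN1A at 3.43, ZMAT3 at 3.17 and BBC3 at 3.13. RRM2B, which overlapped between the lines in normoxia, was 190.9 and 172.2 RPKM in LNCaP EV hypoxia against 39.3 and 47.25 RPKM in PC3 siCtrl hypoxia, a log2 difference of 2.07. After upper-quartile scaling 7 members stayed higher, beside 34.4% of all genes, MDM2 at 0.69 no longer passed (limma, adjusted p = 0.196), and FAS at -0.84 was lower (limma, adjusted p = 0.0114), beside 33.0%. The members' median was 3.13 beside 0.94 over all genes as deposited, and 2.30 beside 0.06 after scaling.

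**Figure D2:**
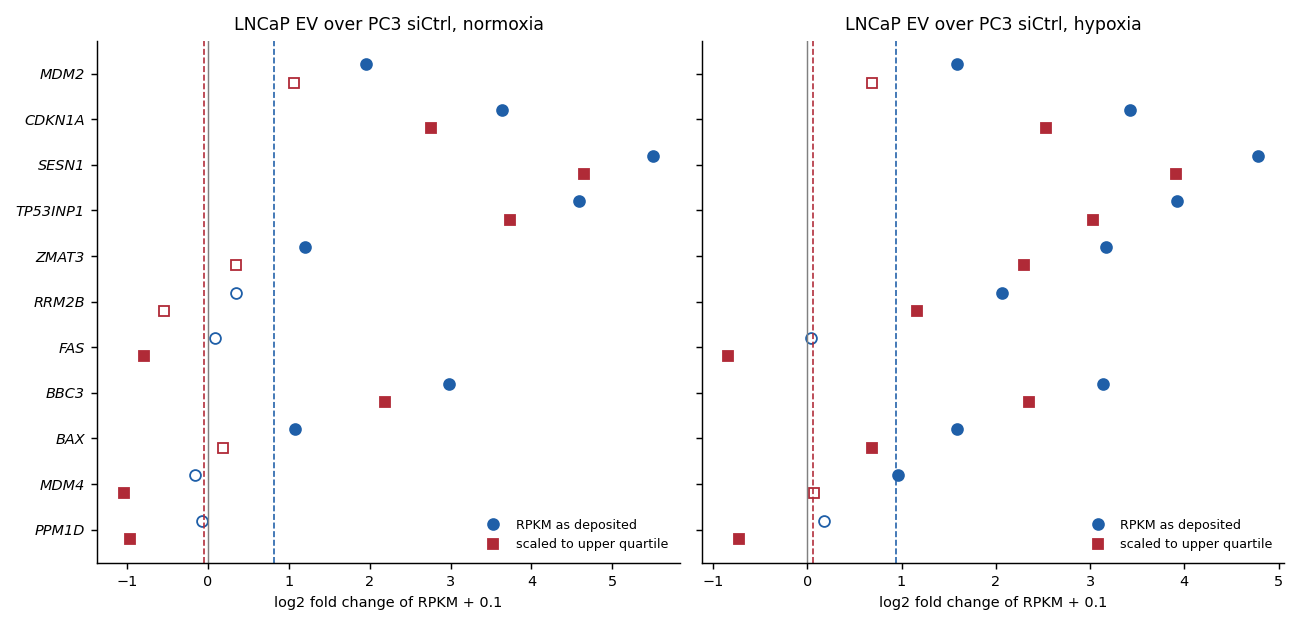
Log2 difference, LNCaP EV over PC3 siCtrl, of each member in normoxia and in hypoxia on 2 scales (blue circles, RPKM as deposited; red squares, divided by each library's upper quartile), and of the p53 regulators MDM4 and PPM1D, with filled points at an adjusted p under 0.05 in limma and dashed lines at the median of all genes. SESN1, TP53INP1, CDKN1A and BBC3 lie right of both medians in both panels. FAS changes side of 0 with the scale in both, and RRM2B does in normoxia.

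Other established p53 targets, 51 in a list, moved both ways between the lines. Of 50 tested, 27 were higher and 7 lower in LNCaP in normoxia as deposited, beside 6983 higher and 2462 lower of all 13571 genes, and 30 higher and 8 lower in hypoxia, beside 7357 and 2379. After upper-quartile scaling 19 were higher and 16 lower in normoxia, beside 4286 and 4642 of all genes, and 18 higher and 14 lower in hypoxia, beside 4672 and 4478. GDF15, a secreted stress cytokine, led at a log2 difference of 6.54 in normoxia as deposited and 5.66 after scaling, with XPC (DNA damage recognition) at 5.72 and 4.89 and SPATA18 (mitochondrial quality control) at 5.33 and 4.87. SFN (14-3-3 sigma) was lower in LNCaP, at -4.56 and -5.40 in the same order. Of 18 regulators of p53 tested, 12 were higher and 1 lower in normoxia as deposited, and 6 higher and 4 lower after scaling. RFWD2, a p53 ubiquitin ligase also called COP1, was higher by 4.10 as deposited and 3.24 after scaling, and RCHY1, another p53 ubiquitin ligase, by 2.57 and 1.70, while CDKN2A, whose locus encodes the MDM2 inhibitor ARF and the kinase inhibitor p16, was at -1.25 and -2.14, lower in LNCaP. In hypoxia 13 regulators were higher and 1 lower as deposited, and 9 higher and 3 lower after scaling.

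Reading the promoters gives the letters that p53 could recognise, and no statement on which start was used. RefSeq windows of 300 bases, 250 before to 50 after an annotated start, were matched for 7 of the 9 members, 15 windows in all. A p53 response element was counted where 2 half-sites of 10 bases stood at most 1 base apart, with C at position 4 and G at position 7 of each and at most 3 mismatches to the consensus over 20 bases, on either strand. It was found in 4 of the 15 windows, in MDM2, FAS and SESN1, and in 2.38% of 35116 promoter windows. The 2 MDM2 windows among the 4 overlap and hold the same element, so each of the 3 genes had 1 element. The 3 windows below are shown because they hold the element, which is in capitals. Bases in lower case did not meet this rule and may still hold p53 sites that depart from it. They are RefSeq sequence of GRCh38.p14 (MDM2 chr12:68808767-68809066, plus strand; FAS chr10:88991181-88991480, plus strand; SESN1 chr6:109008939-109009238, minus strand), and each reads the same in hg19.
MDM2, internal promoter: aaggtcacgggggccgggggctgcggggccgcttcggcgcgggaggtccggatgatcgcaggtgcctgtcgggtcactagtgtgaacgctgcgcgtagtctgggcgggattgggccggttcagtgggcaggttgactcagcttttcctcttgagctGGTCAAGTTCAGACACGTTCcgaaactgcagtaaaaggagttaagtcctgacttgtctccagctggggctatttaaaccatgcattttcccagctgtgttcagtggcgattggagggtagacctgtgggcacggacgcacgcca
FAS: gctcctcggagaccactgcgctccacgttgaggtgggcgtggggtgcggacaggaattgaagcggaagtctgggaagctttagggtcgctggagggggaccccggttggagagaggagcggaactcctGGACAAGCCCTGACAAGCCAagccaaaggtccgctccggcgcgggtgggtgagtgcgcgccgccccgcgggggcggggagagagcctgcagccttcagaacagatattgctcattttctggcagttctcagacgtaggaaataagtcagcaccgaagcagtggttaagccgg
SESN1, internal promoter: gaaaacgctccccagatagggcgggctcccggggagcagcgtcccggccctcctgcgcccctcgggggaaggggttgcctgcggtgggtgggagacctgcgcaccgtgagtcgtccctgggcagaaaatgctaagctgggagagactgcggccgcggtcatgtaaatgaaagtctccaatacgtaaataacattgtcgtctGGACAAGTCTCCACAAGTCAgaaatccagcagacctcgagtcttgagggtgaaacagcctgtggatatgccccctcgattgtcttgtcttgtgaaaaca
The MDM2 element ends 75 bases before its start, with 2 mismatches, and lies in intron 1 of the canonical transcript (hg19 chr12:69202703-69202722). The FAS element, also with 2 mismatches, ends 103 bases before its start (hg19 chr10:90751066-90751085), inside 12 of the 16 annotated FAS transcripts and in an exon of 2 of them. The SESN1 element, with 3 mismatches, ends 30 bases before its start and lies in intron 1 of the canonical transcript (hg19 chr6:109330221-109330240). These 3 genes differed between the lines by unlike amounts. In normoxia, EV over siCtrl, the log2 differences were 5.51 for SESN1 (45.5-fold), 1.95 for MDM2 and 0.08 for FAS as deposited. After upper-quartile scaling they were 4.65, 1.06 and -0.79, and MDM2 lost its call. Every LNCaP library lay above every PC3 library on both scales for SESN1 and MDM2, while FAS overlapped on both. The hypoxia-inducible factor core ACGTG was in 5 of the 15 windows and in 21.4% of all windows. In 2 of the 5, the overlapping MDM2 windows, it lay at the same site inside the p53 element. The core GCGTG was in 6 of 15 and in 36.5% of all, and the ONECUT core ATCAAT in 1 of 15, a FAS window, and in 6.26% of all, both strands searched.

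Ectopic ONECUT2 in LNCaP raised CDKN1A in normoxia and 4 of the 9 targets in hypoxia. In normoxia CDKN1A was 72.9 and 95.7 RPKM in EV and 154.6 and 171.5 RPKM with OC2. The 2 OC2 libraries lay above both EV libraries, a 1.95-fold rise (log2 0.96 ± 0.14, SE; limma, adjusted p = 0.00948). It was the only member called of 9, beside 3.56% of all genes called higher, and the median over the members was 0.10 against -0.08 over all genes. MDM2 (log2 0.07) and SESN1 (0.06) were close to 0 with overlapping libraries, and BBC3 was -0.41 (limma, adjusted p = 0.187). Without OC2 normoxia replicate 1 the CDKN1A call was lost at an adjusted p of 0.0532 in limma, its log2 fold change then being 1.04.

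In hypoxia the members called with OC2 were CDKN1A, MDM2, SESN1 and BBC3, each of them higher, while the cell death genes BAX (log2 0.22) and FAS (0.30) did not pass. CDKN1A was 108.1 and 100.5 RPKM in EV and 208.0 and 180.9 RPKM with OC2, a log2 rise of 0.90 ± 0.14 (SE; limma, adjusted p = 0.0078). MDM2 was 163.9 and 187.1 against 266.2 and 236.7 RPKM, a log2 rise of 0.52 ± 0.11 (SE; limma, adjusted p = 0.0212). Neither gene overlapped between the groups. SESN1 was 34.3 and 29.9 RPKM in EV and 55.0 and 52.45 RPKM with OC2, a log2 rise of 0.74 ± 0.14 (SE; limma, adjusted p = 0.0159). BBC3 was 3.41 and 2.84 against 6.01 and 5.57 RPKM, a log2 rise of 0.87 ± 0.17 (SE; limma, adjusted p = 0.0161). For both, the OC2 libraries again lay above both EV libraries. These 4 of 9 compare with 6.72% of all genes called higher, and all 9 fold changes were above 0, with a median of 0.33 beside -0.01 over all genes. The other 5, among them TP53INP1, BAX and RRM2B, were between 0.18 and 0.33 and did not pass. The MDM2, SESN1 and BBC3 calls were each lost when any 1 of the 4 libraries was left out, and the CDKN1A call without EV hypoxia replicate 2 or OC2 hypoxia replicate 1, with adjusted p of 0.0539 to 0.182 over the lost calls in limma.

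**Figure D3:**
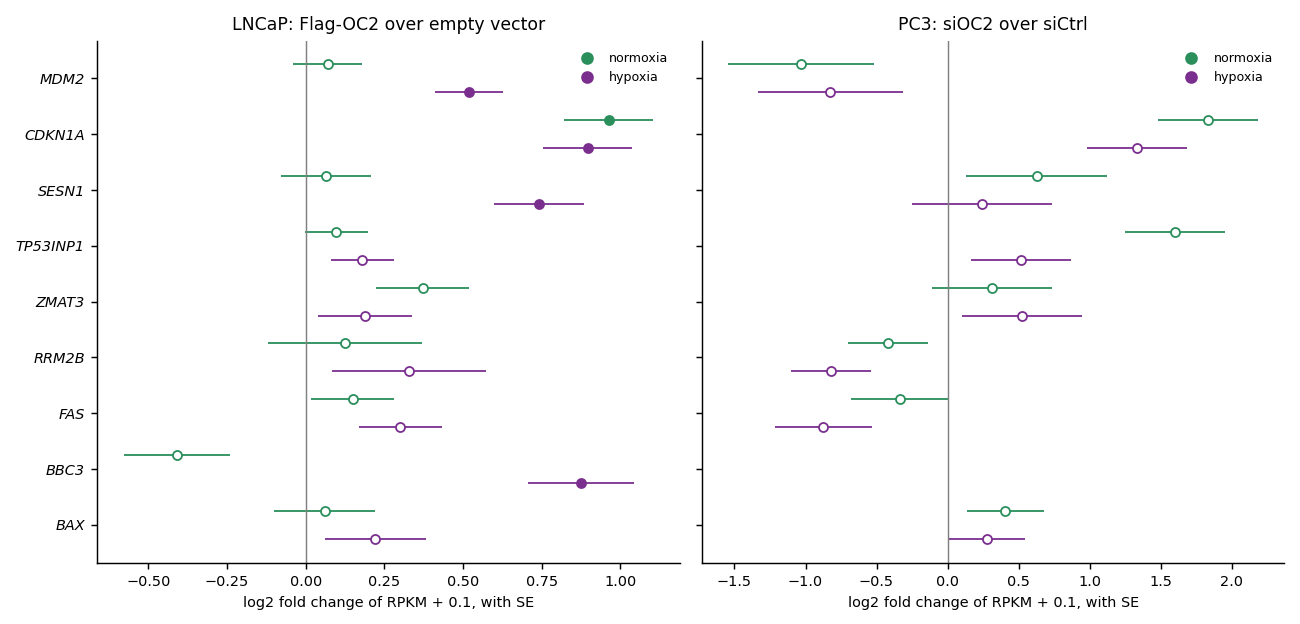
Log2 fold change of each member with ONECUT2 change, OC2 over EV in LNCaP (left) and siOC2 over siCtrl in PC3 (right), in normoxia and in hypoxia, with SE bars and filled points at an adjusted p under 0.05 in limma; the x axes differ and BBC3 was not tested in PC3. In LNCaP the filled points are CDKN1A at 0.96 and 0.90 and, in hypoxia, BBC3 at 0.87, SESN1 at 0.74 and MDM2 at 0.52, and none is filled in PC3.

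The test of whether the OC2 effect differed between hypoxia and normoxia called 0 of 9 members in limma, beside 0.244% of all genes. An unadjusted p under 0.05 was reached by 3 members, beside 2072 of all 12283 genes. BBC3 came nearest, with an interaction of 1.28 on the log2 scale (limma, adjusted p = 0.0781), the OC2 effect going from -0.41 in normoxia to 0.87 in hypoxia. SESN1 had an interaction of 0.68 (limma, adjusted p = 0.170) and MDM2 of 0.45 (limma, adjusted p = 0.212).

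Among the 47 other p53 targets tested in LNCaP, 5 rose and 2 fell with OC2 in normoxia, and 8 rose and 2 fell in hypoxia. After upper-quartile scaling these counts were 6 and 0 in normoxia and 11 and 2 in hypoxia, where calls over all genes went from 437 higher and 209 lower to 547 and 105 in normoxia and from 826 and 592 to 997 and 435 in hypoxia. CD82, a membrane tetraspanin that suppresses metastasis, rose by 1.05 in normoxia, PLK3, a stress kinase, by 0.93 and TP53I11 by 0.80 on the log2 scale. GDF15 fell by 2.34, from 199.1 and 858.1 RPKM in EV to 78.4 and 85.2 RPKM, with EV replicate 2 far above the rest, and its call was lost after scaling (limma, adjusted p = 0.0541). In hypoxia KITLG, the ligand of the KIT receptor, was 0.344 and 0.478 RPKM in EV and 3.71 and 3.31 RPKM with OC2, a log2 rise of 2.83 (limma, adjusted p = 0.000343). TP53I3, a quinone oxidoreductase, rose by 1.73 and TP53I11 by 1.14, while TRIM22 fell by 0.76 and CMBL by 0.47. Of 18 p53 regulators 0 passed in normoxia (limma), and in hypoxia ATM, the DNA damage kinase, rose by 0.66.

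Cell cycle genes that p53 and p21 are known to lower were mostly lower in the OC2 libraries, with more calls in hypoxia than in normoxia. Of 12 tested in hypoxia, 7 fell and 0 rose, with a median of -0.51 on the log2 scale, against 592 of 12283 genes called lower. After upper-quartile scaling 5 of the 12 fell, against 435 of all genes. CDK1 fell by 0.47, the mitotic kinase gene PLK1 by 0.85 and BIRC5, which encodes survivin, by 0.53. In normoxia 1 of the 12 fell, against 209 of all genes, and the median was -0.39, with 1 above 0. In limma 9 of the 12 had an unadjusted p under 0.05 at each oxygen level. Over all 12283 genes these were 2966 in normoxia and 3466 in hypoxia. The interaction of OC2 and hypoxia called 0 of the 12 (limma), beside 0.244% of all genes. CCNA2, 1 of the 12, was listed at 0 in replicate 1 of EV normoxia, EV hypoxia and OC2 hypoxia. Replicate 2 of these groups held 22.5, 20.3 and 15.4 RPKM, so its fold changes rest on those zeros. LNCaP markers were also lower in the OC2 hypoxia libraries, 3 of 6 called with a median of -0.43 (2 of 6 after scaling), and their part in the rise of the 4 members was not tested.

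Hypoxia moved the 9 targets in both directions in LNCaP. In EV, TP53INP1, ZMAT3 and RRM2B rose and FAS and SESN1 fell. ZMAT3 was 4.99 and 3.95 RPKM in normoxia and 10.8 and 10.5 RPKM in hypoxia, a log2 rise of 1.24 ± 0.15 (SE; limma, adjusted p = 0.000783). RRM2B was 115.6 and 65.65 RPKM in normoxia and 190.9 and 172.2 RPKM in hypoxia, a log2 rise of 1.06 ± 0.25 (SE; limma, adjusted p = 0.0133). TP53INP1 was 34.6 and 30.3 RPKM in normoxia and 51.4 and 49.5 RPKM in hypoxia, a log2 rise of 0.64 ± 0.10 (SE; limma, adjusted p = 0.00252). In none of the 3 did the libraries overlap, though the normoxia values of RRM2B lay far apart. FAS was 6.27 and 5.52 RPKM in normoxia and 3.63 and 3.68 RPKM in hypoxia, and its log2 value fell by 0.67 ± 0.13 (SE; limma, adjusted p = 0.00683). SESN1 was 58.4 and 43.75 RPKM in normoxia and 34.3 and 29.9 RPKM in hypoxia, and its log2 value fell by 0.66 ± 0.14 (SE; limma, adjusted p = 0.0102). The hypoxia libraries of both genes lay below both normoxia libraries. The 3 of 9 higher stand beside 18.2% of all genes and the 2 lower beside 14.1%, and the members' median of -0.03 beside 0.02 over all genes. The FAS and RRM2B calls were lost without EV hypoxia replicate 1 and the SESN1 call without EV hypoxia replicate 2, and the RRM2B call also with no filter on low values (limma, adjusted p = 0.0502).

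With OC2 present, hypoxia raised 4 members and lowered 1. ZMAT3 was 5.36 and 6.22 RPKM in normoxia and 11.75 and 12.6 RPKM in hypoxia, a log2 rise of 1.06 (limma, adjusted p = 0.00212). TP53INP1 rose by 0.72 (limma, adjusted p = 0.00198) and RRM2B by 1.26 (limma, adjusted p = 0.00828), as in EV libraries. BBC3 was 2.66 and 3.09 RPKM in normoxia and 6.01 and 5.57 RPKM in hypoxia, a log2 rise of 0.99 ± 0.17 (SE; limma, adjusted p = 0.00478). SESN1, by contrast, was 52.5 and 53.25 RPKM in normoxia and 55.0 and 52.45 RPKM in hypoxia, a log2 fold change of 0.02 with overlapping libraries. FAS was 6.71 and 6.36 RPKM in normoxia and 4.61 and 4.44 RPKM in hypoxia, and fell by 0.52 on the log2 scale (limma, adjusted p = 0.0224), a call lost when any 1 of the 4 libraries was left out. The 4 of 9 higher stand beside 18.4% of all genes, the 1 lower beside 8.49%, and the median of 0.25 beside 0.09. The RRM2B call was lost without OC2 normoxia replicate 1 or OC2 hypoxia replicate 2. The EV and OC2 differences are those of the interaction test above, which called 0 members. MDM2, CDKN1A and BAX passed in neither hypoxia comparison in LNCaP, and BAX stayed between 54.3 and 79.2 RPKM over the 8 libraries.

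**Figure D4:**
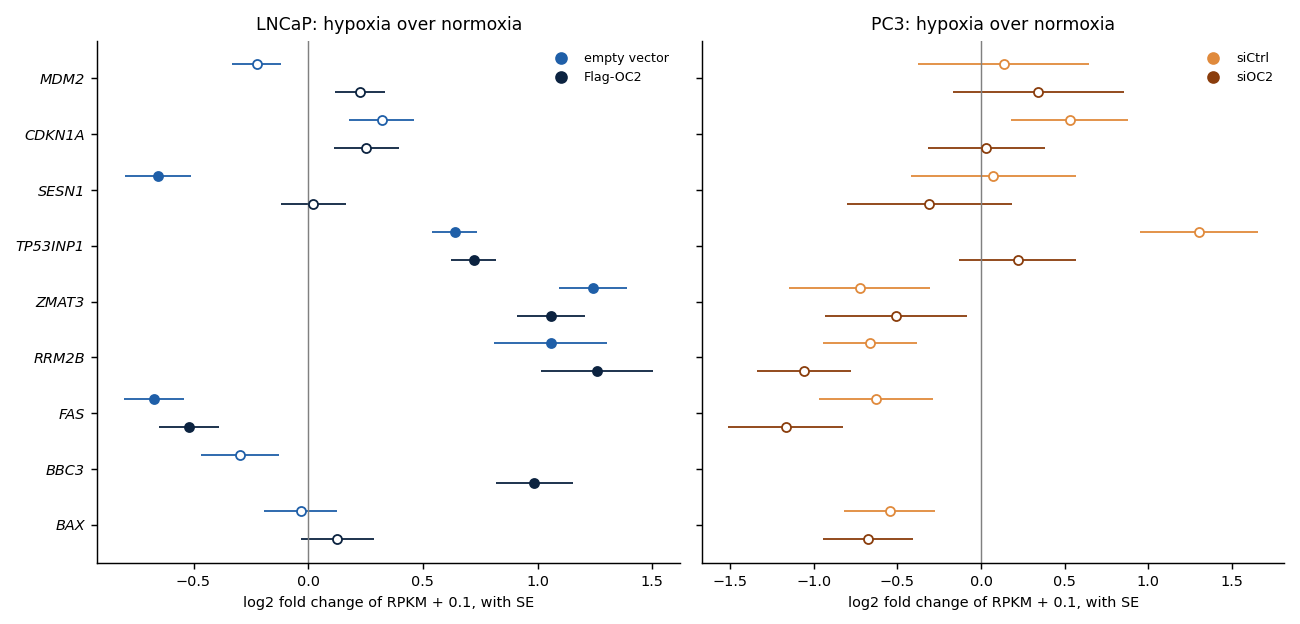
Log2 fold change of each member in hypoxia over normoxia, in LNCaP with EV or OC2 (left) and in PC3 with siCtrl or siOC2 (right), with SE bars and filled points at an adjusted p under 0.05 in limma; the x axes differ and BBC3 was not tested in PC3. ZMAT3 (1.24 and 1.06) and RRM2B (1.06 and 1.26) are filled to the right of 0 in LNCaP, and none is filled in PC3.

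Of the 47 other targets, 12 rose and 9 fell with hypoxia in EV, beside 18.2% and 14.1% of all genes. With OC2, 13 rose and 2 fell, beside 18.4% and 8.49%. After upper-quartile scaling these counts were 8 and 9 in EV and 12 and 4 with OC2. DRAM1, a lysosomal membrane protein of p53-linked autophagy, rose most in EV, from 7.35 and 6.48 RPKM to 27.9 and 27.7 RPKM (log2 1.99; limma, adjusted p = 0.00148). GADD45A, a growth arrest and DNA damage gene, rose by 0.68, and KITLG fell by 1.20, FDXR (ferredoxin reductase) by 0.71 and SESN2, a paralogue of SESN1, by 0.70. With OC2, GDF15 rose by 2.42 and APAF1, the apoptosome scaffold, by 1.21. CD82 fell by 0.93 and CMBL by 0.87. The regulators were 5 higher and 2 lower of 18 in EV and 7 higher and 2 lower with OC2, beside the shares of all genes as deposited given above. HIPK2, a kinase that phosphorylates p53, rose from 23.9 and 23.6 RPKM to 57.0 and 56.7 RPKM in EV (log2 1.26) and by 0.66 with OC2. EP300, an acetyltransferase coactivator, rose by 0.96 with OC2 and the checkpoint kinase gene CHEK2 fell by 0.69. PPM1D, the phosphatase WIP1 that restrains p53 and is also its target, rose by 0.44 in EV (limma, adjusted p = 0.0336) and 0.75 with OC2 (limma, adjusted p = 0.00528). The EV call of PPM1D was lost with a replicate block (limma, adjusted p = 0.0507) and without EV normoxia replicate 2 or either EV hypoxia library.

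In PC3, which lacks p53, CDKN1A was higher in every siOC2 library. It was 6.26 and 6.98 RPKM in siCtrl normoxia and 20.6 and 27.6 RPKM in siOC2, a 3.56-fold difference (log2 1.83 ± 0.35, SE; limma, unadjusted p = 0.000714, adjusted p = 0.167). In hypoxia it was 9.26 and 9.93 RPKM against 17.6 and 33.6 RPKM, log2 1.34 ± 0.35 (SE; limma, unadjusted p = 0.00488, adjusted p = 0.183). The groups did not overlap at either oxygen level, and the 2 siOC2 libraries of hypoxia lay apart. TP53INP1 was 1.05 and 1.48 RPKM in siCtrl normoxia against 3.86 and 4.11 RPKM in siOC2, log2 1.60 ± 0.35 (SE; limma, unadjusted p = 0.00169, adjusted p = 0.192), and in hypoxia 3.58 and 2.90 against 3.90 and 5.53 RPKM. MDM2 was 42.8 and 65.5 RPKM against 42.1 and 15.8 RPKM in normoxia, and 61.0 and 55.3 against 47.3 and 22.7 RPKM in hypoxia. The lower MDM2 value at each oxygen level came from siRNA2.

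At an adjusted p under 0.05 limma called 0 of the 8 members tested in normoxia, beside 0.00819% of all genes, and 0 of 8 in hypoxia, beside 0.0901%. In hypoxia 3 members of the 8 had an unadjusted p under 0.05, beside 1482 of all 12214 genes. A looser rule, a fold over 2 with an unadjusted p under 0.05, took CDKN1A and TP53INP1 as higher in normoxia, beside 3.62% of all genes, and CDKN1A in hypoxia, beside 3.55%. A fit with the siRNA as a term in the siOC2 libraries, chosen after the data were seen, called CDKN1A (limma, adjusted p = 0.000709) and TP53INP1 (limma, adjusted p = 0.00848) higher in normoxia, beside 4.11%, and MDM2 lower (limma, adjusted p = 0.0247), beside 2.19%. In hypoxia the same fit called CDKN1A higher (limma, adjusted p = 0.00353), beside 4.76%, and MDM2 lower (limma, adjusted p = 0.0498), beside 6.20%. The term takes the difference between the 2 siRNAs out of the spread, so these p do not measure whether the siRNAs agree. MDM2 in normoxia was 42.1 RPKM with siRNA1 and 15.8 RPKM with siRNA2, beside 42.8 and 65.5 RPKM in siCtrl. Of the libraries compared in hypoxia, siOC2 hypoxia replicate 1 and siCtrl hypoxia replicate 2 were shallow, as was siCtrl normoxia replicate 1. Without those 3 libraries CDKN1A was higher by 1.75 in normoxia and 1.85 in hypoxia, TP53INP1 by 1.37 in normoxia, and limma still called 0 members.

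Of 46 other targets tested in PC3, 0 passed in either siOC2 comparison in limma. The looser rule took 4 as higher in normoxia, beside 442 of all 12214 genes. In hypoxia it took 5 as higher and 2 as lower, beside 434 and 482 of all genes. SESN2 and DRAM1 were among the higher at both, named after their values were seen. SESN2 was 0.639 and 0.908 RPKM in siCtrl normoxia against 4.66 and 4.47 RPKM in siOC2, and 1.08 in both siCtrl hypoxia libraries against 4.02 and 4.51 RPKM. DRAM1 was 7.24 and 8.02 against 20.5 and 16.2 RPKM in normoxia, and 9.57 and 8.35 against 30.4 and 22.2 RPKM in hypoxia. Neither gene overlapped between siCtrl and siOC2. Of the 12 cell cycle genes that p53 and p21 lower, 0 passed (limma), with 12 of 12 below 0 at both oxygen levels, medians of -0.64 in normoxia and -0.78 in hypoxia, and 4 and 7 of them at an unadjusted p under 0.05. Over all 12214 genes tested, 7484 in normoxia and 5813 in hypoxia were above 0, with medians of 0.13 and -0.03. An unadjusted p under 0.05 was reached by 1124 and 1482 of them.

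Hypoxia in PC3 called 0 of 8 members in limma in siCtrl, beside 0.270% of all genes. An unadjusted p under 0.05 was reached by 2 members, beside 901 of all 12214 genes. TP53INP1 was 1.05 and 1.48 RPKM in normoxia and 3.58 and 2.90 RPKM in hypoxia, log2 1.30 ± 0.35 (SE; limma, adjusted p = 0.332), and the looser rule took it alone of the members, beside 2.23%. RRM2B was 77.1 and 60.45 RPKM in normoxia against 39.3 and 47.25 RPKM in hypoxia, log2 -0.66 (limma, adjusted p = 0.651). The groups of both genes were apart. With siOC2 limma called 0 of 8, beside 0.00819%, with 3 at an unadjusted p under 0.05, beside 820 of all 12214 genes. FAS was 5.53 and 3.46 RPKM in normoxia against 2.06 and 1.74 RPKM in hypoxia, and RRM2B 55.8 and 46.5 against 20.7 and 28.7 RPKM. These 2 were lower by the looser rule, beside 2.35% of all genes, at log2 -1.17 and -1.06 (limma, adjusted p = 0.719 for both). TP53INP1, already at 3.86 and 4.11 RPKM with siOC2 in normoxia, was 3.90 and 5.53 RPKM in hypoxia. Without the 3 shallow libraries these values were 1.22 for TP53INP1 and -0.62 for RRM2B in siCtrl, and -1.28 for FAS and -0.82 for RRM2B with siOC2, on the log2 scale, with 0 calls in limma. The median over all genes for hypoxia with siOC2 was -0.22 as deposited and -0.09 after upper-quartile scaling. The interaction of siOC2 and hypoxia called 0 of 8, beside 0% of all genes (limma), and 0 members had an unadjusted p under 0.05, beside 126 of all 12214 genes.

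The response to hypoxia in LNCaP EV was set against that in PC3 siCtrl by the difference of the 2 log2 fold changes. ZMAT3 rose in LNCaP and was 1.92 and 1.83 RPKM in PC3 normoxia against 0.989 and 1.21 RPKM in hypoxia, and the difference of the responses was 1.97 ± 0.38 (SE; limma, adjusted p = 0.0309). It was 1 of 9 members called, beside 0.877% of all genes called higher. RRM2B rose in LNCaP and was lower in hypoxia in PC3 by the values above, with a difference of 1.72 ± 0.38 (SE; limma, adjusted p = 0.0589) that passed after upper-quartile scaling (limma, adjusted p = 0.0461). The ZMAT3 call was lost when any 1 of the 8 libraries was left out, with log2 differences of 1.80 to 2.13 and adjusted p of 0.0660 to 0.150 in limma. TP53INP1, higher in hypoxia in both lines, had a difference of -0.67 that did not pass (limma).

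Likeness between expression patterns was computed over the 8 libraries of each line as a description only. In LNCaP, CDKN1A (Pearson r = 0.759), MDM2 (0.741) and BBC3 (0.698) followed the mean of the other members most closely, and FAS (-0.276) ran against it. In PC3, BAX (0.820) and ZMAT3 (0.671) followed it and MDM2 (-0.662) ran against it. These 8 points share vector or siRNA, oxygen and depth. Over all genes, those most like the members' mean were MBD3L2, RASGEF1C and TMEM132B in LNCaP (r of 0.984 to 0.991) and IL10RB, PDIK1L and WDR5B in PC3 (0.987 to 0.998).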

How the data were processed

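RNA was extracted with RNeasy, libraries were made with TruSeq Stranded mRNA and sequenced on a HiSeq2500. Per the labels and the study's methods, alignment by the authors was to hg19 (STAR 2.4.2a), and gene RPKM came from Cufflinks 2.1.1 run on GENCODE gene models of the GRCh37 build. The deposited RPKM tables, one per cell line, hold no read counts, so absolute depth is unknown. The strand setting of the counting was not given in the sources used here. The 12 ChIP-Seq samples of the 28 were not analysed here. Some members of the gene lists are counted in the lists but not reported by name here.

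RPKM were tested as log2(RPKM + 0.1) with limma 3.58.1 (R 4.3.3, trended variance), keeping genes that reached 1 RPKM in 2 or more libraries, 12283 in LNCaP, 12214 in PC3 and 13571 over both. A fold change on this scale understates the change of low genes. All groups of a line shared 1 fit without a replicate block, and comparisons between the lines used 1 fit of 16 libraries. A call is a Benjamini-Hochberg adjusted p under 0.05 over all genes tested, two-sided, in 13 comparisons. The study's own limits (fold over 2 and unadjusted P under 0.05), another pseudocount, filters, upper-quartile scaling, a replicate block and leaving out each library were alternatives, and 3 were added after seeing the data. With 2 libraries against 2, an exact permutation test of 1 gene cannot go below p = 0.333. The steps were tested on simulated data.

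The members and gene lists were chosen with earlier results of these data known. In each comparison the text names the other targets and regulators with the largest changes among those called, up to 3 in each direction. Of the called cell cycle genes up to 3 are named, in list order. Members have GENCODE loci in GRCh37 (MDM2 12:69201957-69239324; CDKN1A 6:36644237-36655114; FAS 10:90750414-90775542; TP53INP1 8:95938200-95961606; RRM2B 8:103216730-103251189; SESN1 6:109305512-109416049; ZMAT3 3:178677909-178790003; BBC3 19:47724079-47736023; BAX 19:49458072-49465055). Same-numbered libraries did not deviate together in every pair (correlations of -0.0648 to 0.275 in LNCaP and -0.186 to 0.618 in PC3, the latter between siOC2 libraries that share a siRNA), so the numbers were not taken as pairs.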

Additional observations from a re-analysis of the deposited data

Results flagged for a closer look

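The difference between the hypoxia responses of the 2 lines was tested for each member, and it passed for ZMAT3, at 1.97 on the log2 scale (limma, adjusted p = 0.0309), higher in hypoxia in 2 of 2 LNCaP EV libraries and lower in 2 of 2 PC3 siCtrl libraries. The call was lost without any 1 of the 8 libraries, at adjusted p of 0.0660 to 0.150.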

How the results depend on the processing

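Of 2729 values recomputed under alternatives, 2570 kept their side of the threshold or stayed within their spread, 66 lost a call, 32 gained one and 58 moved. The other 3 turned direction with a call, each with upper-quartile scaling between the lines (FAS at -0.79 in normoxia and -0.84 in hypoxia, PPM1D at -0.72 in hypoxia). Genes uncalled both ways were not checked for direction. Among them RRM2B, LNCaP over PC3 in normoxia, was above 0 as deposited and -0.54 after that scaling. With upper-quartile scaling, members between the lines were called 4 higher and 1 lower in normoxia and 1 lower in hypoxia, beside the shares above. For the hypoxia response between lines 2 were called higher, beside 179 of 13571 genes. That count was also 2 with a pseudocount of 1, beside 192, and with only the groups compared, beside 577 of 12958.

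With the study's limits, 0 members were taken as higher with OC2 in LNCaP, beside 345 of all 12283 genes in normoxia and 454 in hypoxia. With hypoxia 0 were lower in EV, beside 288. In OC2, 2 were higher and 0 lower with hypoxia, beside 673 and 167. For the LNCaP interaction 1 was higher, beside 288. In PC3 the members taken were 2 higher with siOC2 in normoxia and 1 in hypoxia. With hypoxia 1 was higher in siCtrl and 2 lower in siOC2. The shares of all genes for these PC3 counts stand above. For the response between lines 2 were higher, beside 714 of all 13571 genes. With the siRNA term, siOC2 had 2 members higher and 1 lower in normoxia and 1 and 1 in hypoxia, beside the shares given above. With hypoxia in siCtrl that fit called 1 higher, beside 296 of all 12214 genes. With only the groups compared, hypoxia in siCtrl called 1 higher (TP53INP1, limma, adjusted p = 0.0149) and 1 lower (RRM2B, limma, adjusted p = 0.0487). Over all 11469 genes tested, that fit called 590 higher and 602 lower, against 33 and 0 of 12214 in the main fit. The cause of these shifts was not tested.

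Without 1 library, the members called with OC2 were 0 to 1 higher in normoxia and 0 to 1 in hypoxia, with hypoxia 2 to 4 higher and 1 to 2 lower in EV and 3 to 4 higher and 0 lower in OC2, and 0 to 1 for the LNCaP interaction (BBC3, limma, adjusted p = 0.0496 without EV normoxia replicate 1). With hypoxia in PC3 siOC2, RRM2B was called lower only without siOC2 hypoxia replicate 2. Its hypoxia group was then the shallow siOC2 hypoxia replicate 1 alone, and that fit called far more genes lower than the main fit. Between the lines, the members called at each oxygen level stayed called, and RRM2B joined them in normoxia without EV normoxia replicate 2. For the hypoxia response between lines, the ZMAT3 call was lost each time, and RRM2B was called without EV normoxia replicate 1. A lone sample left in a group is assumed to vary like the other groups.

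The replicate block changed no member's call in any LNCaP or PC3 comparison, and with the numbers swapped in PC3 it called 0 members. In normoxia with OC2 it called 1 member higher and in hypoxia 4, as without it, beside 330 and 662 of 12283 genes. With 2 libraries a group and unknown depth, members that did not pass in PC3 are not shown to be equal between groups.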
